A study of Mus musculus with 4 samples.

Results

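The genes described here are 10 genes of blood and lymphatic endothelium, the cells that line the vessels: Pecam1, Cdh5, Kdr, Flt1, Tek, Tie1, Vwf, Emcn, Lyve1 and Prox1. They were chosen by name, with earlier results of these data known. Every non-control probe carrying one of these names was taken, which gave 14 probes on 24 spots out of 55681 probes for 34844 gene names. Gene expression was measured with 4 Agilent 1-colour whole mouse genome arrays in salivary glands (SGs) of female C57/BL6 mice aged 10 weeks, with 2 arrays labelled Myd88-KO and 2 labelled Wildtype. The labels give the tissue as submandibular and sublingual glands, whereas the paper that reported the data describes its arrays as of whole submandibular glands. The Myd88-KO mice lack Myd88, an adaptor of Toll-like and interleukin-1 receptors, in all tissues, and both genotypes were offspring of heterozygous parents. The labels name no treatment for either group. The labels do not say whether an array holds RNA of 1 mouse or of several, so the p-values measure only the spread between these arrays, which may be technical.

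Endothelial cells are held together by junction proteins, receive growth signals through receptors for vascular endothelial growth factor (VEGF) and angiopoietins, and differ between arteries, veins, capillaries and lymphatic vessels. Salivary glands are densely vascularised, since primary saliva is made from plasma water that leaves the capillaries around the acini. Lymphatic endothelium shares many of these genes with blood endothelium and adds its own, among them the hyaluronan receptor Lyve1 and the transcription factor Prox1.

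A value is the log2 processed signal of a probe minus the log2 of the 75th percentile of its array, so that 0 is the brightness of the 75th percentile spot. A difference is the mean of the Myd88-KO arrays minus the mean of the Wildtype arrays on this scale. Each probe binds its target with its own strength, so levels of different genes were not ranked. The 4 arrays lie on 1 slide. Between 52.2% and 74.2% of the probes were well above background on an array, and the share varied within each label (52.2% and 68.4% for Myd88-KO, 74.2% and 55.1% for Wildtype). The Myd88 probe was not lower on the arrays labelled Myd88-KO (log2 signal 1.51 and 1.41) than on those labelled Wildtype (1.15 and 1.07). The deleted exons are not given in the sources used here, and this probe leaves the labels unchecked.

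All 10 genes were on the array. The label of the set holds for blood endothelium: its 8 genes were well above background on all 4 arrays. It holds only in part for lymphatic endothelium, since Lyve1 was well above background on all 4 arrays and Prox1 on none. The sequences of the probes for Tek and Tie1 are shown first, because these 2 related receptors had differences of opposite sign, that of Tek resting on 1 array, and share much of this sequence. Capitals mark the bases that are identical when base 1 of the Tek probe is set against base 4 of the Tie1 probe.
Tek, chr4:94540624-94540683 (mm9, plus strand): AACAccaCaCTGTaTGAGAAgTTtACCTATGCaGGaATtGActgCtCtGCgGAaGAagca
Tie1, chr4:118144132-118144191 (mm9, minus strand): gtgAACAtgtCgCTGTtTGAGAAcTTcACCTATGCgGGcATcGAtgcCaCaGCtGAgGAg
Of 57 aligned bases 39 were identical (68.4%), and the longest identical run was 8 bases. The next sequences belong to Pecam1, whose arrays overlapped between the labels, and Emcn, the 1 gene of the set that was higher at an unadjusted p under 0.05, and they are shown whole in lower case.
Pecam1, chr11:106540864-106540923 (mm9, minus strand): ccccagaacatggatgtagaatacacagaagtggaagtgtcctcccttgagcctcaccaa
Emcn, chr3:137086389-137086448 (mm9, plus strand): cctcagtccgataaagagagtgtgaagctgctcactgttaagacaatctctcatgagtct
Each of these 4 probes is 60 bases long and reads without a stop codon in at least 1 of its 3 forward frames. Exon and UTR annotation of mm9 was not used here.

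The comparison asks whether endothelial genes of the SGs differed between the Myd88-KO and Wildtype arrays. Cdh5, Tie1 and Lyve1 were lower and Emcn was higher on the Myd88-KO arrays at an unadjusted p under 0.05, with differences between -0.84 and 0.36. Pecam1, Kdr, Flt1, Tek and Vwf did not pass that threshold. Under 16 other settings of the processing and the fit, the unadjusted call was kept in 15 for Cdh5, in 13 for Tie1, in 9 for Emcn and in 8 for Lyve1. After Benjamini-Hochberg adjustment of limma's p-values, 0 of the 9 genes tested were below 0.05, as were 0 of all 22312 genes (0%), among which the smallest adjusted p was 0.194. At an unadjusted p under 0.05, 4 of 9 genes passed, against 16.7% of all genes. Of these, 3 (33.3% of the 9) were lower, against 6.83% of all genes, and 1 (11.1%) was higher, against 9.82%. The 2 arrays of one label lay wholly to one side of the other 2 for 5 of the 9 genes, against 52.0% of all genes. Myd88-KO was the lower side for 4 (44.4%), against 18.7%, and the higher side for 1 (11.1%), against 33.2%. The median difference of the 9 genes was -0.07, and that of all genes was 0.06. Because the genes were chosen with earlier results of these data known, their shares are not independent of those results and are given as a description. With 2 arrays a label, the smallest p of an exact two-sided permutation test is 0.333, so single values rest on the spread that limma pools across genes. In whole tissue, fewer cells of a type and less RNA per cell cannot be told apart.

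**Figure D1:**
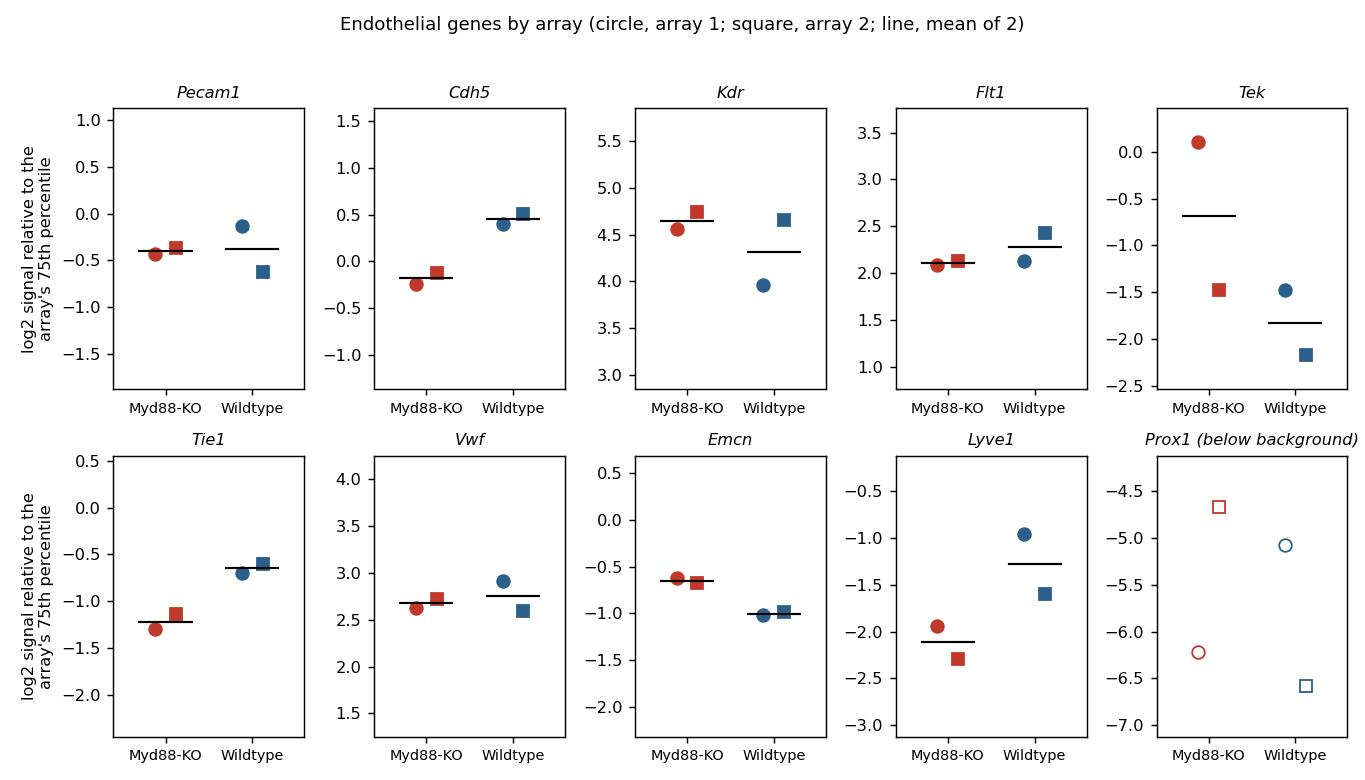
Log2 signal relative to the array's 75th percentile (y axis, each panel spanning 3 log2 units) of the 10 endothelial genes on the 2 Myd88-KO and 2 Wildtype arrays, with circles for array 1, squares for array 2 and lines for the mean of 2 arrays. Cdh5 and Tie1 are lower and Emcn is higher on both Myd88-KO arrays with little spread, Tek is set apart by Myd88-KO array 1 alone, and Prox1 (open symbols) is not well above background on any array.

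Cdh5 encodes VE-cadherin, the adhesion protein of endothelial adherens junctions, and its probe lies at chr8:106668159-106668218 (mm9, as are all positions here). Its log2 signal was -0.24 and -0.12 on the Myd88-KO arrays and 0.40 and 0.51 on the Wildtype arrays. Both Myd88-KO arrays lay below both Wildtype arrays, and the gap between the labels was several times the gap within either. The difference was -0.64 ± 0.11 (SE), a factor of 1.55, and limma's p was 0.00559 unadjusted and 0.203 adjusted. As scanned, before any scaling, the processed signal of this spot was 217 and 218 on the Myd88-KO arrays and 424 and 382 on the Wildtype arrays.

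Pecam1 encodes CD31, an adhesion protein of the same cell borders that platelets and some leukocytes also carry. Its log2 signal was -0.43 and -0.37 on the Myd88-KO arrays and -0.13 and -0.62 on the Wildtype arrays. The Myd88-KO values lay between the Wildtype values, so the groups overlapped. The difference was -0.03 (95% interval -0.60 to 0.55), and it turned to 0.22 without Wildtype array 1. The probe has 2 spots, whose SD was 0.0327 to 0.126 log2 units on an array, less than the gap of the Wildtype arrays.

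Kdr encodes VEGF receptor 2, the main signalling receptor for VEGF-A. Its brighter probe, at chr5:76330395-76330454, gave 4.56 and 4.74 on the Myd88-KO arrays and 3.96 and 4.66 on the Wildtype arrays, a difference of 0.34 (95% interval -0.45 to 1.13). The values overlapped, with Wildtype array 1 the lowest of the 4, and without that array the difference was -0.01. The other Kdr probe, at chr5:76329309-76329368 and averaged over 10 spots, gave 0.78 and 1.03 on the Myd88-KO arrays and 1.02 and 1.34 on the Wildtype arrays. This difference was -0.27 ± 0.18 (SE), so the 2 Kdr probes had opposite signs and neither passed an unadjusted p of 0.05 (0.299 and 0.214 in limma's fit over 31016 probes).

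Flt1 encodes VEGF receptor 1, which binds VEGF-A, VEGF-B and placental growth factor and is also made as a soluble form. The brightest of its 3 probes, at chr5:148373791-148373850, gave 2.09 and 2.13 on the Myd88-KO arrays and 2.13 and 2.43 on the Wildtype arrays. The groups were apart only by a hair: Myd88-KO array 2 minus Wildtype array 1 was -0.01. The difference was -0.17 (95% interval -0.58 to 0.24). A second probe, designed to another Flt1 transcript 73081 bp away, gave 0.24 and 0.37 on the Myd88-KO arrays and 0.01 and 0.23 on the Wildtype arrays, a difference of 0.19 ± 0.14 (SE) with the opposite sign. The third Flt1 probe was not well above background on any of the 4 arrays. For both VEGF receptors, the direction therefore depended on the probe.

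Tek encodes Tie2, the receptor of the angiopoietins. Its log2 signal was 0.10 and -1.48 on the Myd88-KO arrays and -1.48 and -2.17 on the Wildtype arrays. Myd88-KO array 1 stood alone, and the other Myd88-KO array lay at the level of Wildtype array 1. The difference was 1.13 ± 0.64 (SE), with a limma adjusted p of 0.449, and without Myd88-KO array 1 it was 0.34. The gene has 1 spot on each array. The processed signal of this spot was 275 on Myd88-KO array 1, with a scanner error of 27.7, against 84.8 on Myd88-KO array 2 and 115 and 59.7 on the Wildtype arrays.

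Tie1 encodes the orphan relative of Tie2, which modulates its signalling. The log2 signal of Tie1 was -1.30 and -1.14 on the Myd88-KO arrays and -0.70 and -0.60 on the Wildtype arrays. The groups did not overlap, and both were narrow. The difference was -0.57 ± 0.12 (SE), a factor of 1.48, and limma's p was 0.0102 unadjusted and 0.209 adjusted. With normexp background correction the difference was -0.36, and the call was lost without Myd88-KO array 1, without Wildtype array 2 (limma's unadjusted p 0.05 and 0.0576) and with median scaling (0.251). As scanned, the processed signal was 104 and 108 on the Myd88-KO arrays and 197 and 178 on the Wildtype arrays.

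Vwf encodes von Willebrand factor, a clotting protein stored in endothelial granules and in platelets, and its brighter probe lies at chr6:125636551-125636610. The log2 signal of Vwf was 2.63 and 2.72 on the Myd88-KO arrays and 2.91 and 2.59 on the Wildtype arrays, so the groups overlapped. The difference was -0.07 (95% interval -0.51 to 0.37). Its second probe, at chr6:125542106-125542165, gave -0.11 and 0.18 against 0.27 and 0.45. There the groups did not overlap, and the difference was -0.33 ± 0.16 (SE), with an unadjusted p of 0.116 in limma's fit over probes.

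Emcn encodes endomucin, a sialoglycoprotein on the surface of capillary and venous endothelium. Its log2 signal was -0.62 and -0.68 on the Myd88-KO arrays and -1.02 and -0.99 on the Wildtype arrays. Both Myd88-KO arrays lay above both Wildtype arrays, and the 2 arrays of each label were close. The difference was 0.36 ± 0.10 (SE), a factor of 1.28, and limma's p was 0.024 unadjusted and 0.247 adjusted. As scanned, the signals overlapped (167 and 148 on the Myd88-KO arrays, 158 and 135 on the Wildtype arrays). The separation of Emcn therefore appeared only after each array was set relative to its 75th percentile, which was 256 and 237 on the Myd88-KO arrays and 321 and 269 on the Wildtype arrays. With normexp background correction or another scaling the difference was 0.29 to 0.35. The Emcn call was lost without any 1 of the 4 arrays (limma's unadjusted p 0.0744 to 0.104), with the replicate number as a block (0.0754), without the filter on dim probes (0.0568) and with median scaling (0.572).

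Lyve1 encodes a hyaluronan receptor of lymphatic endothelium that some tissue macrophages also carry, and its probe lies at chr7:117994171-117994230. The log2 signal of Lyve1 was -1.94 and -2.29 on the Myd88-KO arrays and -0.96 and -1.60 on the Wildtype arrays. The groups did not overlap, but the Wildtype arrays differed from each other by more than the nearest arrays of the labels did. The difference was -0.84 ± 0.28 (SE), a factor of 1.78, and limma's p was 0.0446 unadjusted and 0.289 adjusted. The Lyve1 call was lost without Myd88-KO array 1, Myd88-KO array 2 or Wildtype array 1 (limma's unadjusted p 0.0657, 0.159 and 0.121), the last with a difference of -0.52, and under 5 further settings, among them quantile normalization (0.0602). With normexp the difference was -0.45. Of 10 macrophage markers, 1 was higher and 0 were lower at an unadjusted p under 0.05, and their summed level was 31.6 to 36.5 on the Myd88-KO arrays and 30.1 to 39.5 on the Wildtype arrays, in units of the 75th percentile spot. The part of macrophages in the Lyve1 difference was not tested.

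Prox1, the transcription factor that sets lymphatic identity, was not well above background on any array and was not tested. The mean signal of its spot, at chr1:191945785-191945844, was 26.4 and 45.5 on the Myd88-KO arrays, where the local background was 25 and 32. On the Wildtype arrays it was 41.7 and 24.8, against a local background of 27 and 25. On 1 array of each label the scanner software replaced the value with a surrogate, so these arrays hold no usable difference for Prox1.

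**Figure D2:**
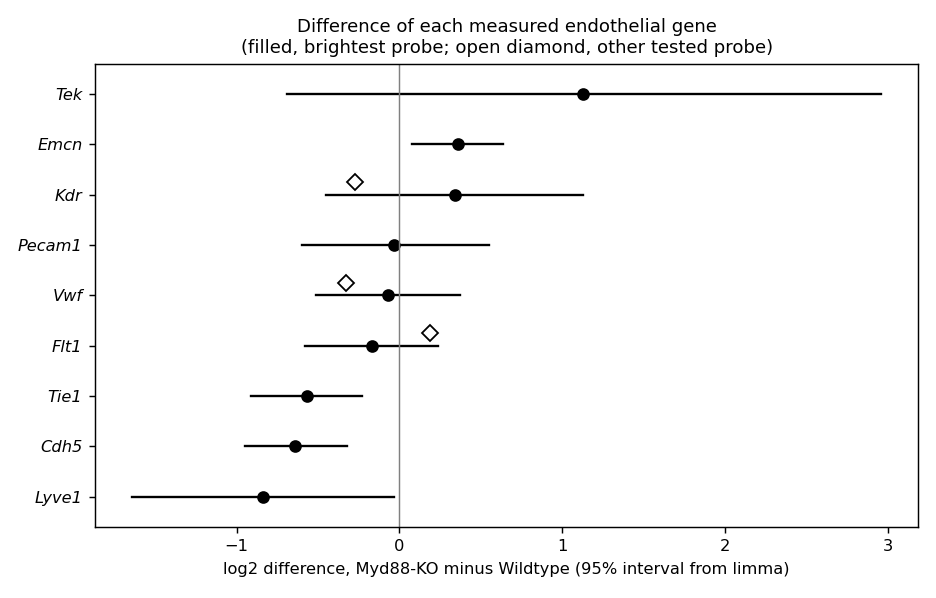
Log2 difference, Myd88-KO minus Wildtype (x axis), of the 9 endothelial genes tested, with filled circles for the brightest probe, lines for limma's 95% interval and open diamonds for a gene's other tested probe. The intervals of Cdh5, Tie1 and Lyve1 lie below 0 and that of Emcn above 0, and the open diamonds of Kdr and Flt1 lie on the other side of 0 from the filled circles.

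Because 2 probes on 1 array share its scaling, their ratio does not depend on the constant by which the array is scaled, while quantile normalization can change it. The ratios were chosen after the values had been seen and are given as a description. The log2 ratio of Emcn over Cdh5 was -0.38 and -0.55 on the Myd88-KO arrays and -1.42 and -1.50 on the Wildtype arrays, a difference of 0.99. That of Emcn over Tie1 was 0.68 and 0.46 against -0.31 and -0.40, a difference of 0.93. Both ratios were higher on each Myd88-KO array than on each Wildtype array, whatever constant the arrays are scaled by. Since Emcn was already higher and Cdh5 and Tie1 lower on both Myd88-KO arrays, this order follows from the choice of genes and adds no separate evidence.

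Tie1 over Cdh5 was -1.06 and -1.02 on the Myd88-KO arrays and -1.11 and -1.10 on the Wildtype arrays, a difference of 0.07, so that these 2 genes differed between the labels by nearly the same amount. Cdh5 over Pecam1 was 0.19 and 0.24 against 0.53 and 1.12, and Tie1 over Pecam1 was -0.87 and -0.77 against -0.57 and 0.02. Lyve1 over Pecam1 was -1.51 and -1.92 against -0.83 and -0.98. These 3 ratios to Pecam1 were lower on both Myd88-KO arrays, with mean log2 differences of -0.61, -0.54 and -0.81. The SD of the Wildtype arrays was 0.42 for each of the first 2. Emcn over Pecam1 went the other way, with -0.19 and -0.31 against -0.89 and -0.38, a difference of 0.38.

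**Figure D3:**
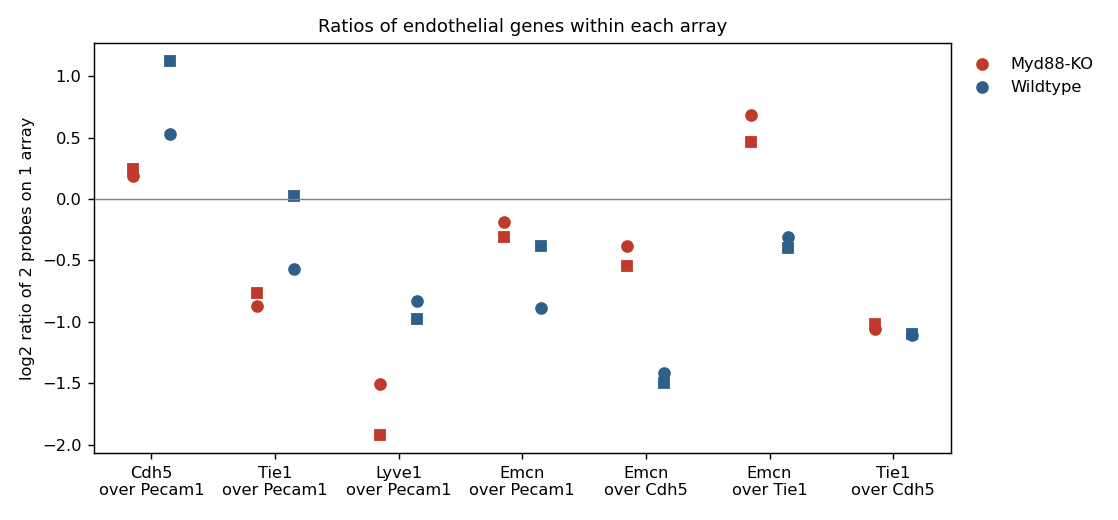
Log2 ratio of 2 probes on the same array (y axis) for 7 pairs of endothelial genes, with red for Myd88-KO, blue for Wildtype, circles for array 1 and squares for array 2. Emcn over Cdh5 and Emcn over Tie1 are about 0.99 and 0.93 higher on the Myd88-KO arrays, and Tie1 over Cdh5 is nearly level.

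The other genes of the endothelial programme were taken from 8 lists of ligands, receptors, regulators and surface proteins, with 87 genes in all. Of these, 73 were tested, 0 passed the adjusted threshold, 25 (34.2%) were lower and 2 (2.74%) were higher at an unadjusted p under 0.05, and 46 did not pass it. Both Myd88-KO arrays lay below both Wildtype arrays for 42 of the 73 genes (57.5%) and above them for 10 (13.7%). The lists were also chosen with earlier results of these data known, so these shares are a description and not independent of those results. The shares of all genes under the same rules are those given above, and the median difference of the 73 genes was -0.32. With 1 array left out, 15 to 21 were lower at an unadjusted p under 0.05, the fewest without Myd88-KO array 1.

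Of the 5 ligands of the VEGF receptors, 1 was higher and 0 were lower at an unadjusted p under 0.05, and both Myd88-KO arrays lay above both Wildtype arrays for 2. Vegfa, the main ligand of Kdr, was 2.47 and 2.48 on the Myd88-KO arrays and 2.40 and 2.62 on the Wildtype arrays, with a difference of -0.03. Vegfc and Figf (VEGF-D), the ligands of lymphatic growth, differed by -0.15 and -0.14, with overlapping arrays. The ligands that bind Flt1 and not Kdr were above their Wildtype arrays: Vegfb was 2.29 and 2.18 against 1.89 and 1.97, and Pgf, placental growth factor, was -1.40 and -1.35 against -1.61 and -1.74. Their differences were 0.31 and 0.30, with limma's p 0.0482 and 0.0537 unadjusted and 0.297 and 0.308 adjusted. The Vegfb call was kept in 4 of the 16 other settings and was lost without any 1 of the 4 arrays.

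Among the other VEGF receptors, Nrp2, a co-receptor for VEGF-C on veins and lymphatic vessels, was 0.71 and 0.74 on the Myd88-KO arrays and 1.44 and 1.38 on the Wildtype arrays. Its arrays were tight and apart, and the difference was -0.69 ± 0.10 (SE), with a limma adjusted p of 0.194. A second Nrp2 probe differed by -0.63. Nrp1, the co-receptor for VEGF-A, was level at -0.01. Flt4, the VEGF-C receptor of lymphatic endothelium, had no probe that could be tested.

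Among the angiopoietins, the ligands and regulators of Tek and Tie1, 2 of 4 genes tested, Angpt2 and Svep1, were lower at an unadjusted p under 0.05 and 0 were higher. Angpt2, a ligand that endothelial cells themselves release, was -3.51 and -3.42 on the Myd88-KO arrays and -1.77 and -2.31 on the Wildtype arrays, a difference of -1.42 ± 0.22 (SE) with a limma adjusted p of 0.195. Its Myd88-KO values lay within 1 log2 unit of the lowest signal counted as well above background on these arrays (-3.97 and -4.03), and with normexp background correction the difference was -0.45. Svep1, a matrix protein that binds Tie1, was 0.14 and 0.10 against 0.62 and 0.62, a difference of -0.49 ± 0.10 (SE) with a limma adjusted p of 0.204. Angpt1, the activating ligand of Tek, differed by -0.36 and Ptprb, the phosphatase VE-PTP, by 0.09, and neither passed an unadjusted p of 0.05. Angpt4 could not be tested.

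The junction and surface list had 7 of 26 genes tested lower and 0 higher at an unadjusted p under 0.05, with a median difference of -0.21. Icam2, an adhesion protein of endothelial cells and lymphocytes, was 1.16 and 1.15 on the Myd88-KO arrays and 2.36 and 2.10 on the Wildtype arrays, a difference of -1.08. S1pr1, a receptor for sphingosine 1-phosphate on endothelial cells and lymphocytes, differed by -0.88, Egfl7 by -0.49 and Ushbp1 by -0.49. Their calls were kept in 11, 9 and 12 of the 16 other settings, and that of Icam2 in 16. The other 19 genes did not pass. Of all 26 genes, 20 had a difference below 0 and 6 above, where 40.4% of all genes tested were below 0. Both Myd88-KO arrays lay below both Wildtype arrays for 16 of the 26 (61.5%) and above them for 4 (15.4%), against 18.7% and 33.2% of all genes. Without Myd88-KO array 1 or Wildtype array 1, 1 and 2 genes of this list were lower at that threshold.

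The transcription factor list had 8 of 13 genes tested lower and 0 higher, with a median of -0.66. Meox2, a homeobox factor of capillary endothelium and of muscle, was -1.88 and -1.92 on the Myd88-KO arrays and -0.54 and -0.75 on the Wildtype arrays, a difference of -1.26 ± 0.12 (SE) with a limma adjusted p of 0.194 (-0.76 with normexp). Tcf15, its partner in capillary endothelium, differed by -1.15. Klf2, a factor that blood flow induces and that lymphocytes also carry, differed by -1.07, and Sox7, a factor of developing vessels, by -0.94. For all 4 of these genes both Myd88-KO arrays lay below both Wildtype arrays. The Myd88-KO values of Sox7 (-3.35 and -3.45) lay within 1 log2 unit of the lowest signal counted as well above background, and its call was lost with normexp (a difference of -0.15), quantile normalization and median scaling (limma's unadjusted p 0.241, 0.117 and 0.0659). The calls of Tcf15 and Klf2 were kept in 13 and 11 of the 16 other settings, and each was lost without Myd88-KO array 1 (0.0832 and 0.093), Tcf15 also without Wildtype array 2 (0.0763) and Klf2 without Wildtype array 1 (0.128). With the methods' t-test 2 genes of this list were lower at that threshold, and with median scaling 3. The median of the list was -0.72 to -0.53 with 1 array left out.

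Of the Notch, arterial and venous genes, 1 of 10 was lower and 0 were higher. Hey1, a Notch target of arterial endothelium, was -0.38 and -0.77 on the Myd88-KO arrays and 0.42 and 0.83 on the Wildtype arrays, a difference of -1.20. The median of this list was -0.02.

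The lymphatic list had 13 genes, of which 10 were on the array by these names and 7 were tested. At an unadjusted p under 0.05, 5 of the 7 were lower, and for all 7 both Myd88-KO arrays lay below both Wildtype arrays. The other 2, Pdpn and Mmrn1, were apart only by a hair, with limma's unadjusted p 0.43 and 0.29. Pdpn was 0.48 and 0.32 on the Myd88-KO arrays and 0.49 and 0.50 on the Wildtype arrays. Mmrn1 was -1.70 and -1.72 against -1.29 and -1.70. Itga9, an integrin subunit of lymphatic valves, differed by -1.47, and Gja1, a gap junction protein, by -0.86. With normexp these differences were -0.74 and -0.26. The Gja1 call was lost there, with quantile normalization and with median scaling (limma's unadjusted p 0.061, 0.0551 and 0.0902), and the Itga9 call without Wildtype array 1 (0.0774) and with the methods' test (0.0812). Thy1, which T cells and fibroblasts carry as well, was 1.46 and 1.27 on the Myd88-KO arrays and 2.71 and 2.42 on the Wildtype arrays. Stab2, a scavenger receptor of lymphatic and sinusoidal endothelium, was -4.83 and -3.62 against -0.08 and -1.47. The Stab2 probe was well above background on 1 of 2 Myd88-KO arrays, and another Stab2 probe had the opposite sign, 0.73. Foxc2, Reln and Sema3a could not be tested, as was the case for Prox1.

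The genes of inflamed and high endothelium, the vessels through which lymphocytes enter lymph nodes, had 1 lower and 1 higher of 6 tested. Glycam1, a mucin ligand of L-selectin made by high endothelial venules, was -6.29 and -3.48 on the Myd88-KO arrays and 4.20 and 2.26 on the Wildtype arrays. It was well above background on 1 of 2 Myd88-KO arrays, and its value on the other lay below the lowest signal counted as such there (-3.97), so the size of the difference was not measured. Madcam1, the mucosal addressin, was higher by 0.85 with its brighter probe and differed by -1.47 with its other probe. Sele, Selp and Chst4 could not be tested.

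**Figure D4:**
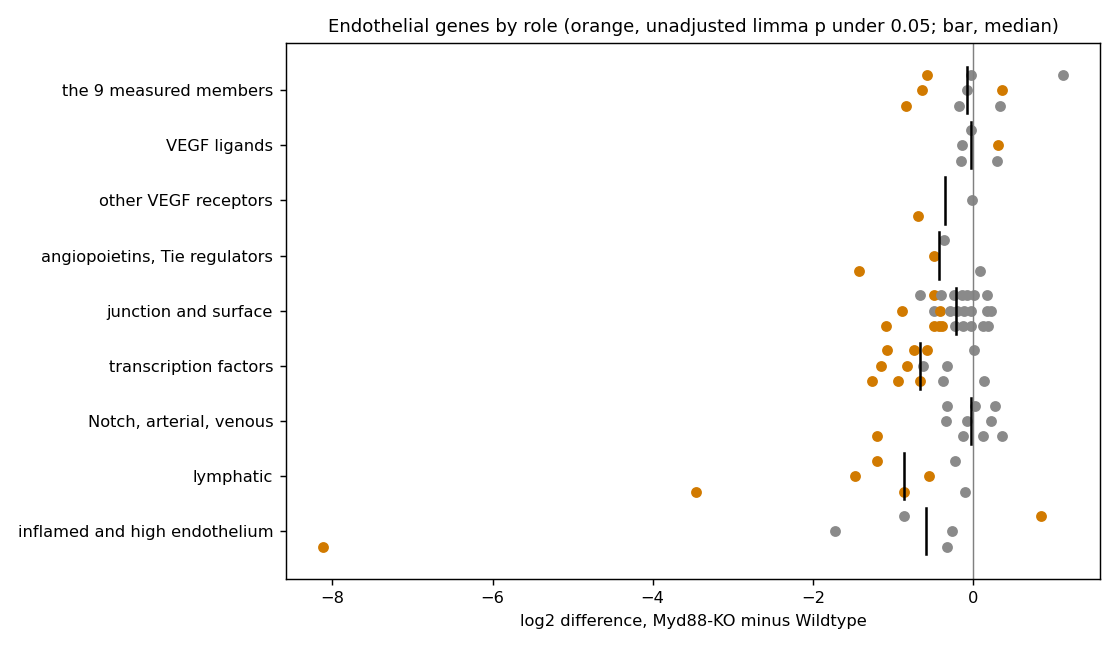
Log2 difference, Myd88-KO minus Wildtype (x axis), of each tested gene of the set and of 8 lists of other endothelial genes (rows), with orange for an unadjusted limma p under 0.05, grey for the rest and a bar for the median of the row. Medians are -0.66 for transcription factors and -0.86 for lymphatic genes, against -0.03 for VEGF ligands and -0.07 for the 9 measured genes of the set, and the points of Glycam1 and Stab2, far to the left, rest on probes well above background on 1 of 2 Myd88-KO arrays.

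Markers of some other cell types differed between the same labels, while those of others differed little. Duct epithelium (10 genes tested) had 0 lower and 2 higher at an unadjusted p under 0.05, with a median difference of 0.02. Schwann cells (6) had 1 lower and 0 higher, with a median of -0.12. Among all genes, 6.83% were lower and 9.82% were higher at that threshold, the shares beside which the counts of cell type genes stand. Lymph nodes, connective tissue and fat were removed from the glands by dissection, according to the labels. Of 5 B cell genes tested, 5 were lower at an unadjusted p under 0.05, and their summed level was 1.95 to 2.25 on the Myd88-KO arrays and 7.91 to 14.3 on the Wildtype arrays, in units of the 75th percentile spot. The B cell marker Ms4a1 was not well above background on either Myd88-KO array. By flow cytometry, which counts cells rather than RNA, the paper reported more B220+ and CD138+ cells in submandibular glands of Myd88-deficient mice. The reason for the opposite directions was not tested. Of 9 T cell genes, 4 were lower, with a summed level of 12.1 to 12.5 against 16.4 to 21.3. Of 10 skeletal muscle genes, 10 were lower, with a summed level of 3.06 to 3.08 against 29.2 to 168, and Myh4 and Actn3 were not well above background on either Myd88-KO array.

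Of 8 adipocyte genes 3 were lower (summed level 169 to 266 against 361 to 363), and of 8 fibroblast genes 4 were lower (132 to 138 against 147 to 163). Of 12 genes of acinar epithelium, the secretory cells, 6 were higher (7520 to 7570 against 5500 to 5830), with a median difference of 0.31. This count fell to 1 to 2 with any array left out, to 1 with the replicate block or median scaling, and to 2 with quantile normalization, where the median was 0.03. Pericytes, the cells that wrap capillaries, had 1 of 10 genes lower, with a median difference of -0.31 (-0.52 to -0.16 with 1 array left out). For 7 of these 10 genes (70%) both Myd88-KO arrays lay below both Wildtype arrays, against 18.7% of all genes, and for 0 above. The summed pericyte level was 49.9 to 52.6 against 50.3 to 53.5, and Mcam, the brightest gene in it, differed by 0.07. Smooth muscle (6 genes tested), platelet (2) and erythrocyte (6) genes had 0 lower and 0 higher, with median differences of 0.01, 0.18 and 0.29. With 1 array left out these medians ranged from -0.17 to 0.15, from -0.06 to 0.41 and from -0.02 to 0.65. With 1 array left out, the lower genes numbered 4 to 5 for B cells, 2 to 4 for T cells (2 without Wildtype array 1), 7 to 9 for skeletal muscle and 0 to 2 for pericytes. They numbered 1 to 7 for adipocytes (1 without either Wildtype array, 7 without Myd88-KO array 2) and 2 to 5 for fibroblasts (2 without Wildtype array 1). With the methods' t-test, the lower genes numbered 3 for B cells, 2 for T cells, 2 for skeletal muscle, 0 for adipocytes and 3 for fibroblasts. The 6 higher acinar genes remained 6 with that test. The part that tissue of lymph nodes, muscle, fat or connective tissue has in the lower endothelial genes was not tested.

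**Figure D5:**
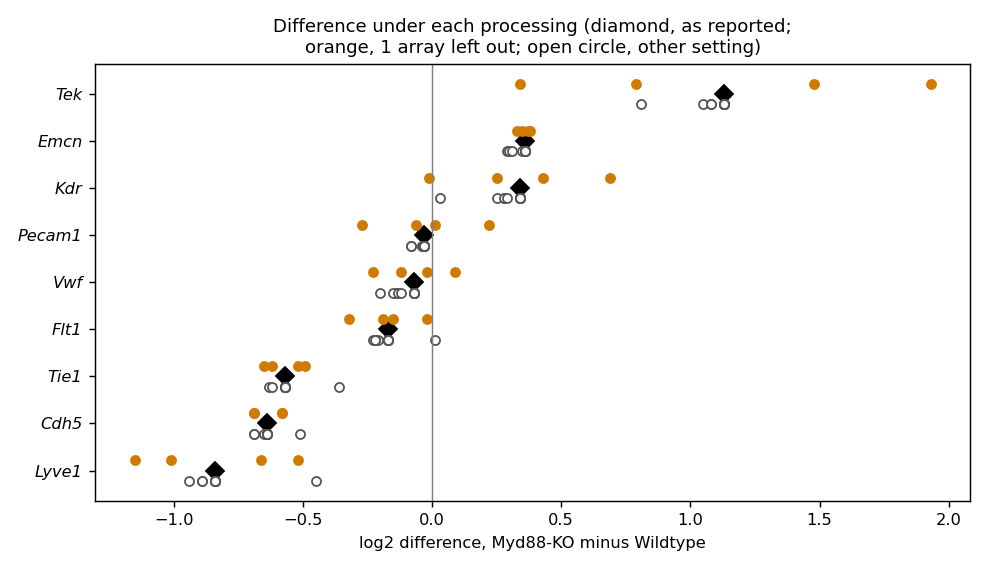
Log2 difference, Myd88-KO minus Wildtype (x axis), of each tested endothelial gene as reported (diamond), with 1 array left out (orange) and under the other settings (open circles). Cdh5, Tie1 and Lyve1 stay below 0 and Tek and Emcn above 0 throughout, while Pecam1, Kdr, Flt1 and Vwf each reach the other side of 0 under at least 1 setting.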

How the data were processed

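Total RNA of salivary glands, submandibular and sublingual according to the labels, was labelled with Cy3 and hybridized to 4 Agilent arrays. The authors deposited the output of Feature Extraction 10.7.3.1, per the file headers: an intensity for each of 62976 spots, background-subtracted and detrended, with a surrogate for dim spots and no normalization between arrays. A further deposited table was left out, since its 4 value columns match no sample by name. The log2 intensity was taken minus that of the array's 75th percentile over 59305 non-control spots. Outlier spots (99 to 131 per array) were left out, no spot was saturated, and spots of a probe were averaged. A probe was tested when well above background (a share of its spots above 0.5) on both arrays of at least 1 label, and the brightest represented the gene. The labels were contrasted by limma 3.58.1 (lmFit, eBayes) under R 4.3.3, with p-values adjusted by Benjamini-Hochberg over 22312 genes, with a threshold of 0.05, and the procedure was tested on simulated data. The number of arrays limits the precision.

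The 10 genes and all lists were chosen with earlier results of these data known. Text names each gene of the set, their direct ligands and partners, and up to 4 genes of each list by size of difference among those with an unadjusted p under 0.05. Ms4a1, Myh4 and Actn3 were named after their values were seen, and 1 gene of the B cell list is not reported here. Gene names and positions (NCBI37/mm9) came from the files, and all 10 names matched the RefSeq table of GRCm38.p6. The 15 other settings run were normexp background correction (offset 50), 3 scalings, 2 dim-probe filters, averaged probes, inclusion of outlier spots, a trended robust eBayes, the methods' t-test, the replicate number as a block, and each array left out. A crossed block was added after seeing the data.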

Additional observations from a re-analysis of the deposited data

How the results depend on the processing

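Of the 9 genes tested, 0 passed the adjusted threshold under any of the 16 alternatives. The smallest adjusted p was 0.0581, for Cdh5 with trended and robust moderation. Cdh5 (-0.69 to -0.51), Tie1 (-0.65 to -0.36), Lyve1 (-1.15 to -0.45), Emcn (0.29 to 0.38) and Tek (0.34 to 1.93) kept their sign under all 16. The count lower at an unadjusted p under 0.05 was 0 with median scaling, where limma's estimate gave 1 spread for all genes, and 1 to 2 with 1 array left out. The count higher was 0 without the filter on dim probes and 0 to 1 with 1 array left out, where Emcn never passed and the 1 gene was Tek without Myd88-KO array 2 or Kdr without Wildtype array 2. With median scaling the 1 higher gene was Tek. Signs reversed for Pecam1 without Myd88-KO array 1 (0.01) and without Wildtype array 1 (0.22; -0.27 without Wildtype array 2), for Kdr (-0.01) and Vwf (0.09) without Wildtype array 1, where without Wildtype array 2 they were 0.69 and -0.23, and for Flt1 with the mean of its probes (0.01).

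Over all genes, calls at the adjusted threshold numbered 79 with normexp, 402 with median scaling, 482 with trended and robust moderation and 1 with the methods' t-test, which called 2935 without adjustment. The 3715 genes at an unadjusted p under 0.05 became 995 with median scaling, 2410 with the replicate block, and 2192 to 3033 with 1 array left out. Their split of 2190 higher and 1525 lower became 1653 and 1887 with the percentile over detected probes, 1614 and 1700 with quantile normalization and 240 and 755 with median scaling.

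Among the related lists, calls at the adjusted threshold numbered 1 with normexp (Glycam1), 2 with median scaling (Glycam1 and Stab2) and 6 with trended and robust moderation (Icam2, Thy1, Madcam1, Meox2, Nrp2 and Hey1). Genes lower at an unadjusted p under 0.05 numbered 11 with median scaling, 12 with the methods' t-test and 15 to 21 with 1 array left out. Genes higher numbered 1 with the percentile over detected probes, 0 with median scaling, 1 with no dim-probe filter, 0 with averaged probes, 1 with the replicate block and 1 with any array left out. Signs reversed for Stab2 with only probes detected on all arrays (0.73), Madcam1 (-0.31) and Ptprb (-0.27) with the mean of probes, Vegfa (0.07) and Vegfc (0.01) without Wildtype array 2, Figf (0.20) without Wildtype array 1 and Ptprb (-0.07) without Myd88-KO array 2. With 1 array left out the other extremes were -0.14 for Vegfa, -0.32 for Vegfc, -0.49 for Figf and 0.24 for Ptprb. Nrp1 reversed with normexp (0.06), without Myd88-KO array 2 (0.04) and without Wildtype array 1 (0.11), with -0.14 without Wildtype array 2. The causes were not tested.

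The deviations of same-numbered arrays from their group means correlated at r = -0.37 over 22312 genes. With 2 arrays a label, the deviations within a label mirror each other, so this value cannot show whether the samples were paired. With the replicate block, 3 genes of the set were lower and 1 higher at an unadjusted p under 0.05, the higher one being Tek (0.0381) and not Emcn (0.0754), and 19 related genes were lower. With a crossed block these counts were 2, 1 and 29. Signal over background limits the dimmest genes, Prox1 above all.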
